A study of Mus musculus with 29 samples.

Results

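The cytosolic sulfotransferase genes of mouse liver were followed through 10 members of the family, Sult1a1, Sult1c2, Sult1d1, Sult1e1, Sult2a1, Sult2a2, Sult2a3, Sult2a8, Sult3a1 and Sult5a1, taken by name from a table of read counts for 55421 genes. The members were chosen by their CPM (counts scaled to a library size corrected by TMM) per mouse over the 6 groups, so their levels and differences are a description, and no test of theirs is used as support. The samples were whole livers of female and male mice: young vehicle, old vehicle and old HDM201. HDM201 is an inhibitor of MDM2, the protein that holds p53 in check, and was given by gavage at 10 mg/kg a day for 14 days, whereas vehicle mice received methylcellulose in phosphate buffer. By the labels the young mice were 5 months old, the old females 20 months and the old males 24 months (the study's methods differ from these by a month for the young mice and the old females). Young mice were C57BL6/N and old mice C57BL/6J, so age and substrain cannot be told apart, and the old females and males differ in age as well as in sex. All mice were unmodified animals with no transgene or deletion named in the labels. The labels name 29 mice. Counts were given for 27 of them, for 5 young vehicle, 4 old vehicle and 5 old HDM201 females and for 4 young vehicle, 4 old vehicle and 5 old HDM201 males, and values in FPKM (Cufflinks, scaled by length and library) for all 29.

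Sulfotransferases move a sulfonate group from the donor PAPS to a hydroxyl or amino group, which usually makes the acceptor more soluble and less active. The SULT1 enzymes act on phenols, catecholamines, thyroid hormone and estrogens, and the SULT2A enzymes on hydroxysteroids such as dehydroepiandrosterone and on bile acids. In rodent liver many of these genes are known for levels that differ between the sexes, a difference set by the pulses of pituitary growth hormone and its signal through STAT5. In bulk tissue, fewer cells of a type and less RNA per cell cannot be told apart.

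The depth on genes lay between 16485900 and 23570458 counts (median 19149235). The 8 hepatocyte markers summed to between 83440 and 167000 CPM in every mouse. Xist was found at 274.6 to 512.3 CPM in females and at most 0.3176 CPM in males, Ddx3y was at 0 in all females, and no library went against its sex label. Nnt, in which C57BL/6J carries a deletion, overlapped between young and old vehicle females (2.238 to 4.419 against 2.193 to 2.92 CPM). In vehicle males it was at 2.387 to 3.671 CPM in young and 1.607 to 2.386 CPM in old mice, without overlap. That gap was narrow, and Nnt was not taken as a check of the substrain. Mdm2, itself a target of p53, was at 29.31 to 38.03 CPM in HDM201 and 25.51 to 27.79 CPM in vehicle old females, without overlap, and overlapped in old males (31.88 to 35.39 against 29.64 to 35.83 CPM).

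The Sult2a genes lie in 1 cluster on chromosome 7 and are copies of each other, which limits how reads can be assigned to them. The start of the coding sequence is shown for the 4 Sult2a members, because it shows which of them can be told apart by a short read. Each stretch is 90 bases from the start codon, inside the first coding exon, read from GENCODE transcripts (GRCm38, the assembly of mm10), and capitals mark bases that differ from Sult2a1. Sult2a1 is at chr7:13837267-13837356 (minus strand), Sult2a2 at chr7:13733559-13733648 (plus strand), Sult2a3 at chr7:14122904-14122993 (minus strand) and Sult2a8 at chr7:14427830-14427919 (minus strand).
Sult2a1: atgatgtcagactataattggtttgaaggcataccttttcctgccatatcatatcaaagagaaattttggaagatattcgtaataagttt
Sult2a2: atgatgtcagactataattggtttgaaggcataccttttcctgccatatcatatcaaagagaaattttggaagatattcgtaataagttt
Sult2a3: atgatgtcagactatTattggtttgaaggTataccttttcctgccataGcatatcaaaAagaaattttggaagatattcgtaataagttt
Sult2a8: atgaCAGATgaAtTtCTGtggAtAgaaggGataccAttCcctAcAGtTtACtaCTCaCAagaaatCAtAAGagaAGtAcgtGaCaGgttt
Sult2a1 and Sult2a2 are identical over the whole first coding exon of 136 bases. Sult2a3 differs from them at 5 of these bases (96.3% identity) and Sult2a8 at 50 (63.2%). Over the annotated transcripts, 33.2% of the windows of 50 bases of Sult2a1 and 62.1% of those of Sult2a2 also occur in a transcript of another gene, against 8.36% for Sult2a3 and 1.96% for Sult2a8. Of the Sult2a1 windows 29.5% are shared with Sult2a2. The GENCODE model of Sult2a2 has 4 coding exons against 6 in Sult2a1 and Sult2a3, so its level per kb is set by a short model (741 bases of exon against 1020 for Sult2a1). How reads that match several genes were counted is not given, and the split of counts between Sult2a1 and Sult2a2 is uncertain. Sult1e1 and Sult1d1 share no such window with another gene.

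**Figure D1:**
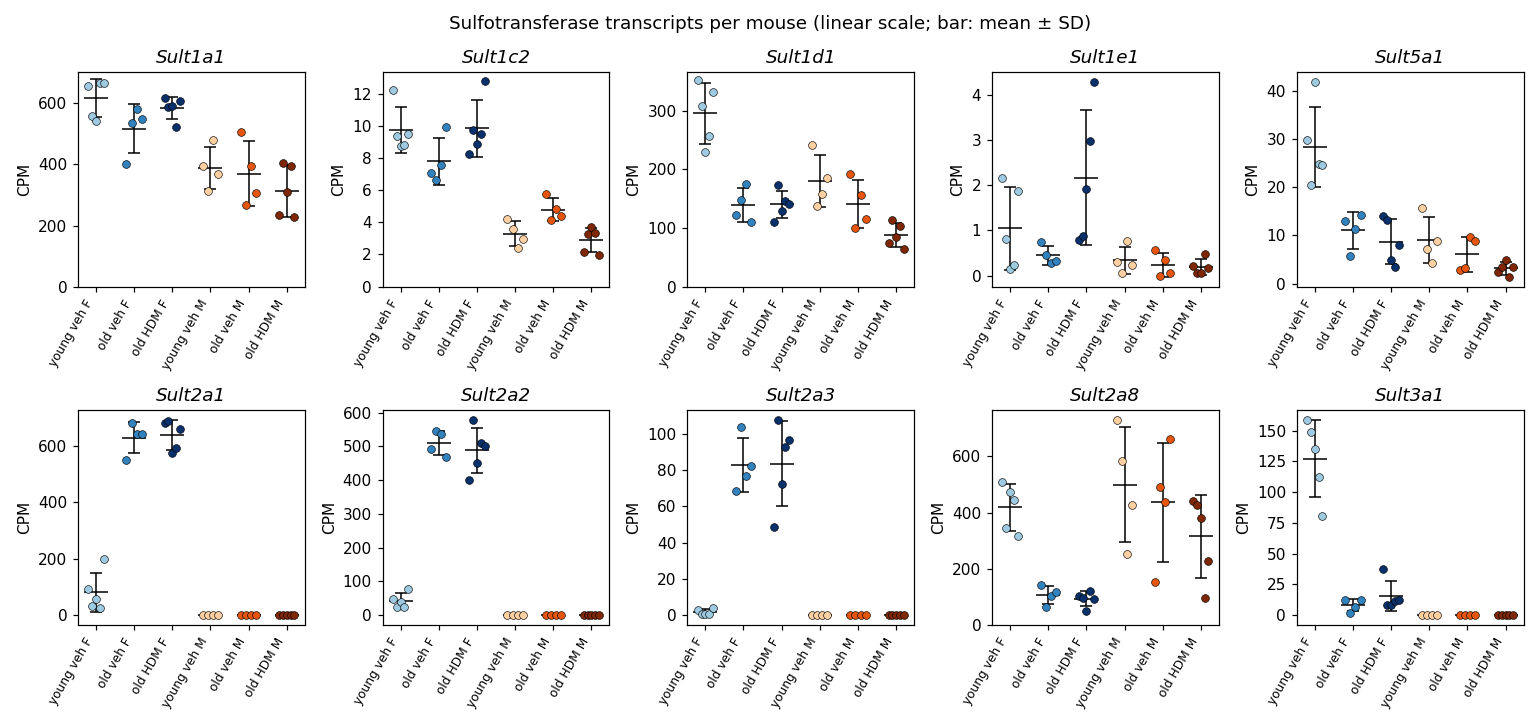
CPM (linear axis) of the 10 sulfotransferase genes in each mouse, with 1 panel per gene and 1 point per mouse; the line and bar give the mean and SD of each group (F female, M male, veh vehicle, HDM HDM201). Sult2a1, Sult2a2 and Sult2a3 are highest in both groups of old females and near 0 in males, whereas Sult3a1 is highest in young females.

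The hydroxysteroid sulfotransferases Sult2a1, Sult2a2 and Sult2a3 were high in old females, lower in young females and close to 0 in males of all 3 groups. Sult2a1 (chr7:13796246-13837409, minus strand) was at 24.1, 32.09, 55.15, 90.98 and 197.5 CPM in the 5 young vehicle females, at 551.3, 641.8, 643.8 and 680.7 CPM in the 4 old vehicle females and at 573.6, 593.1, 658.5, 682.2 and 689.7 CPM in the 5 old HDM201 females. Every old female was above every young female, and the vehicle and HDM201 groups overlapped. Sult2a1 varied 8.196-fold among young females and 1.235-fold among old vehicle females.

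Sult2a2 (chr7:13733505-13779636, plus strand) was at 22.43, 24.44, 38.48, 46.73 and 77.88 CPM in young vehicle females, from 469.9 to 544.9 CPM in old females on vehicle and from 400.5 to 578.7 CPM in old females on HDM201. Sult2a3 (chr7:14067446-14123044, minus strand) was at 0.3443, 0.6675, 0.779, 2.54 and 3.978 CPM in young vehicle females (6 to 81 counts), at 68.6, 76.8, 82.18 and 103.8 CPM in old females on vehicle and at 48.39, 72.42, 92.6, 96.82 and 107.8 CPM in old females on HDM201. The young female with the highest Sult2a1 also had the highest Sult2a2 and Sult2a3, and the young female with the lowest Sult2a1 had the lowest of both. These counts are not independent, since the genes share reads and libraries. The ratio of Sult2a2 to Sult2a3 counts was between 18.4 and 65.17 in young females and between 5.177 and 8.276 in the 9 old females, with no overlap.

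In males the 3 genes gave almost no reads. Sult2a1 had 5 counts over the 4 young vehicle males, 19 over the 4 old vehicle males, of which 17 came from old vehicle male 4, and 1 over the 5 old HDM201 males. Sult2a2 had 1, 9 and 8 counts over the same groups, and Sult2a3 had 0 in all 13 males. The ratio of young females to young males, from pooled counts and scaled library sizes, was 1220 for Sult2a1 (95% exact interval 524 to 3770) and 3180 for Sult2a2 (570 to 126000), and Sult2a3 was at least 41.8-fold higher in females. In old vehicle mice the ratio was 2420 for Sult2a1 (1550 to 4010) and 4120 for Sult2a2 (2170 to 9020), and Sult2a3 was at least 2030-fold higher in females. The bounds set a group with 0 counts to 3 counts over the group, and intervals and bounds cover counting error only, not the spread between mice. In FPKM, Sult2a3 was listed at 0.1982 in young vehicle male 4, where young females were at 0.2745 to 3.989. The bound for Sult2a3 in young mice therefore holds for counts only.

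Sult2a8 (chr7:14410686-14446769, minus strand), whose enzyme acts on bile acids, lies in the same cluster and had another pattern. It was at 315.3, 345.5, 445.7, 474.6 and 509.8 CPM in young vehicle females, at 62.12, 103.7, 115.5 and 140.3 CPM in old females on vehicle and at 49.48, 93.53, 97.3, 101.9 and 121 CPM in old females on HDM201. In males it was at 254.1, 428, 583.2 and 730.9 CPM in the young vehicle group, at 151.3, 437.2, 492.6 and 662.8 CPM in the old vehicle group and at 96.68, 227.7, 381.9, 427.4 and 441.4 CPM in the old HDM201 group. The old females were lower than every young female, and old vehicle females were lower than every old vehicle male. Of the lowest males, old HDM201 male 4 lay within the range of the old females and old vehicle male 2 just above it.

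Sult3a1 (chr10:33857721-33879532, plus strand), an enzyme that sulfonates amines, was at 80.24, 112.5, 135.3, 149.2 and 158.7 CPM in young vehicle females and at 1.88, 6.303, 11.86 and 12.29 CPM in old vehicle females. In old HDM201 females it was at 8.176, 8.368, 11.36, 12.49 and 37.41 CPM, so that HDM201 female 1 stood well above all vehicle females, HDM201 female 5 barely above them, and all were below the young females. Males had 6, 13 and 7 counts in the young vehicle, old vehicle and old HDM201 groups. Females were higher than males by a ratio of 1560 (719 to 4270) in young and 44.5 (25.8 to 84) in old vehicle mice.

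Among the SULT1 members Sult1a1 (chr7:126672865-126676432, minus strand), the main phenol sulfotransferase, was high in every group. It averaged 618.4 ± 61.98 CPM (SD, n = 5) in young vehicle females, 517.3 ± 78.9 (n = 4) in old females on vehicle and 585.2 ± 37.1 (n = 5) in old females on HDM201, against 388.5 ± 69.2 (n = 4), 369.2 ± 106.7 (n = 4) and 314.5 ± 85.14 (n = 5) in the matching males. Sult1d1 (chr5:87554645-87569027, minus strand), which acts on catecholamines, averaged 295.4 ± 51.7, 138.8 ± 28.93 and 140 ± 23.06 CPM in the 3 female groups and 180.1 ± 44.85, 141 ± 41.63 and 88.06 ± 20.45 CPM in the males. Young females were thus the group with the most Sult1d1, and their lowest mouse (228.8 CPM) was below the highest young male (240.8 CPM). Sult1a1 overlaps the gene Sgf29 on the other strand, and the use of strand in counting is not given.

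Sult1c2 (chr17:53829637-53846339, minus strand) was at a lower level, with group means of 9.758, 7.794 and 9.848 CPM in the young vehicle, old vehicle and old HDM201 females and of 3.283, 4.787 and 2.886 CPM in the males. Its lowest female (6.623 CPM) was above its highest male (5.754 CPM). Sult5a1 (chr8:123140192-123158315, minus strand) averaged 28.28 ± 8.314, 11.05 ± 3.782 and 8.725 ± 4.759 CPM in females and 9.006 ± 4.792, 6.128 ± 3.632 and 3.149 ± 1.346 CPM in males. It overlaps Gm20388 on the other strand, and it was listed without an FPKM value in any of the 29 mice.

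Sult1e1 (chr5:87575969-87591594, minus strand), the estrogen sulfotransferase, had the lowest mean CPM of the members in every female group. In young vehicle females it overlapped Sult2a3, and its median was the higher of these (0.8215 against 0.779 CPM). It had 3, 4, 16, 34 and 38 counts in the young vehicle females (0.1558 to 2.159 CPM), 5, 7, 10 and 14 counts in the old vehicle females (0.2765 to 0.741 CPM) and 15, 16, 47, 67 and 91 counts in the old HDM201 females (0.7804 to 4.29 CPM). The highest old vehicle female (0.741 CPM) and the lowest HDM201 female (0.7804 CPM) were close, and only HDM201 females 3, 4 and 5 stood clear of the vehicle mice. The 13 males had between 0 and 14 counts each.

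Compared per kb of exon, the genes took a different order in the groups. In young vehicle females Sult1a1 led at 410.3 ± 41.13 CPM per kb, above Sult2a8 with 127.3 ± 25.57, Sult1d1 with 120.1 ± 21.03, Sult3a1 with 110 ± 27.23, Sult2a1 with 78.4 ± 69.26 and Sult2a2 with 56.67 ± 30.28, and these 5 could not be ranked, as each overlapped its neighbour. In old vehicle females Sult2a2 (689.5 ± 48.48) and Sult2a1 (617 ± 53.98) overlapped each other and stood above Sult1a1 (343.3 ± 52.35), which stood above Sult2a3 (81.37 ± 14.77). In the males of all 3 groups the order of the first 3 was Sult1a1, Sult2a8 and Sult1d1, and Sult1a1 did not overlap Sult2a8 only in the old HDM201 males.

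**Figure D2:**
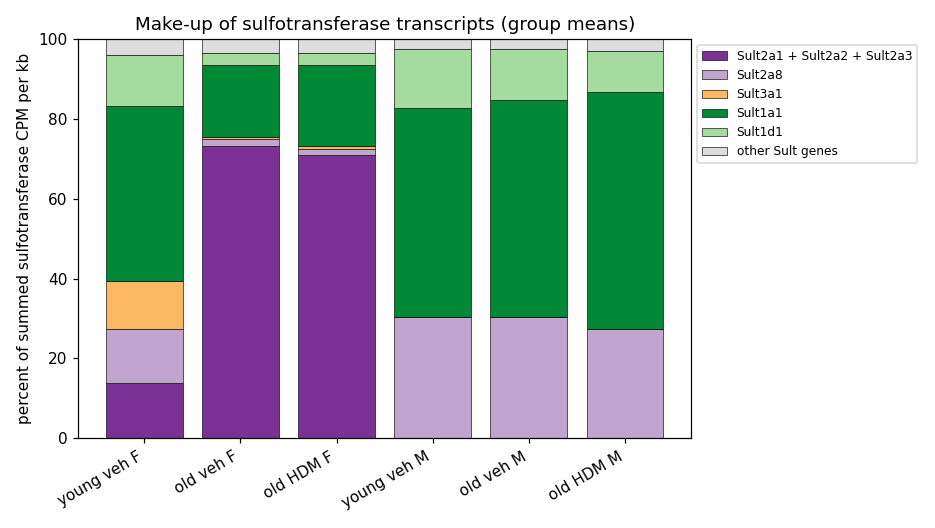
Mean percentage of the summed sulfotransferase level (CPM per kb of exon over all genes named Sult) taken by each gene in the 6 groups, as stacked bars that start at 0. The Sult2a1 to Sult2a3 segment is 13.8% of the bar in young vehicle females and 73.3% in old vehicle females, and it is not visible in males.

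The sum over all sulfotransferase genes was 942.6 ± 126.4 CPM per kb in young vehicle females and 1895 ± 135.1 in old vehicle females, with no overlap (827 to 1088 against 1723 to 2009), and 1924 ± 148.2 in old females on HDM201. It was 496.1 ± 68.93 in young vehicle, 447.4 ± 46.51 in old vehicle and 351.3 ± 73.22 in old HDM201 males. Sult2a1, Sult2a2 and Sult2a3 together made up 13.8% ± 8.53 of it in young vehicle females, 73.3% ± 1.43 in old females on vehicle and 71.0% ± 1.54 in old females on HDM201, and at most 0.317% in any male. The share of Sult1a1 was 43.8% in young and 18.0% in old vehicle females, and that of Sult2a8 was 13.7% and 1.73%. In old vehicle males Sult1a1 held 54.3% and Sult2a8 30.2%.

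The comparison of old with young vehicle mice asks how the liver differs with age (and here with substrain). In females 7 of the 10 members passed an FDR of 0.05 in edgeR (3 higher, 4 lower in old mice) where 31.8% of all 14233 genes tested did (16.8% higher, 15% lower), and the same 7 did not overlap between the groups, as did 25.8% of all genes. The median log2 fold change of the members was -0.685 against 0.009 over all genes. Fitted log2 fold changes were 5.65 ± 0.40 (SE) for Sult2a3, 3.62 ± 0.30 for Sult2a2 and 2.99 ± 0.49 for Sult2a1. Lower in old females were Sult3a1 at -3.96 ± 0.41, Sult2a8 at -1.97 ± 0.21, Sult5a1 at -1.34 ± 0.25 and Sult1d1 at -1.07 ± 0.16. Sult1e1 at -1.18 ± 0.66, Sult1c2 at -0.30 ± 0.15 and Sult1a1 at -0.24 ± 0.12 lay closer to their errors. The value of Sult2a1 depended most on young female 5, the mouse with the most Sult2a1, and was 3.66 without that mouse, where that of Sult2a3 was 6.33.

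In males none of the 5 members tested was called with age, where 3.69% of all 13755 genes were (2.76% higher, 0.931% lower). At an unadjusted edgeR p under 0.05 the count was 1 of the 5, beside 3007 of the 13755 genes, and DESeq2 called 0 members. Sult1c2 was at 0.56 ± 0.21, Sult5a1 at -0.55 ± 0.47, Sult1d1 at -0.35 ± 0.23, Sult2a8 at -0.19 ± 0.41 and Sult1a1 at -0.07 ± 0.21 on the log2 scale. Sult1e1, Sult2a1, Sult2a2, Sult2a3 and Sult3a1 had too few counts in males to be fitted. A direct fit of the difference between the sexes in the age effect, which was added after the data were seen, called no member. Of 14721 genes 577 (3.92%) were called, 2.02% higher and 1.9% lower. An unadjusted edgeR p under 0.05 was found for 4 of the 10 members and for 3160 of all genes. DESeq2 called 4 members in this comparison (Sult1c2, Sult2a3, Sult2a8 and Sult3a1) and edgeR without a filter 2 (Sult2a8 and Sult3a1). The difference, female minus male, was -1.77 ± 0.50 for Sult2a8 and -0.85 ± 0.25 for Sult1c2, and it has no meaning for genes near 0 in males. The age effects of females and males were therefore not shown to differ for any member in the edgeR fit.

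Signs of other cells moved with age in females, where 31.8% of all genes were called. Of the 8 macrophage and Kupffer cell markers 7 rose, and their sum was 181.4 to 281.7 CPM in young and 296.8 to 643.9 CPM in old vehicle females. All 8 were above 0 in every group. Of the 5 B and plasma cell markers 4 rose, and their sum went from 3.429 to 4.361 CPM in young to 14.88 to 29.75 CPM in old vehicle females. The cholangiocyte sum did not overlap either (42.87 to 49.69 against 49.92 to 71.72 CPM), and 2 of its 5 tested markers rose. Of 5 T and NK cell markers tested 2 rose, and their sum did not overlap (2.493 to 4.317 against 4.475 to 5.134 CPM). Of the 8 hepatocyte markers 3 fell, while their sums overlapped (114000 to 123700 against 102500 to 129300 CPM). The counts for cholangiocyte, T and NK cell and hepatocyte markers were near the share of all genes. Of 6 stellate cell markers 2 rose and 1 fell, and of 5 endothelial cell markers 1 rose and 1 fell, with overlapping sums. Of 5 kidney markers, all were at or near 0 (summed at most 0.3594 CPM), and so was the sum of the pancreas markers at most 1.988 CPM. The part of other cells in the differences of the sulfotransferases was not tested.

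**Figure D3:**
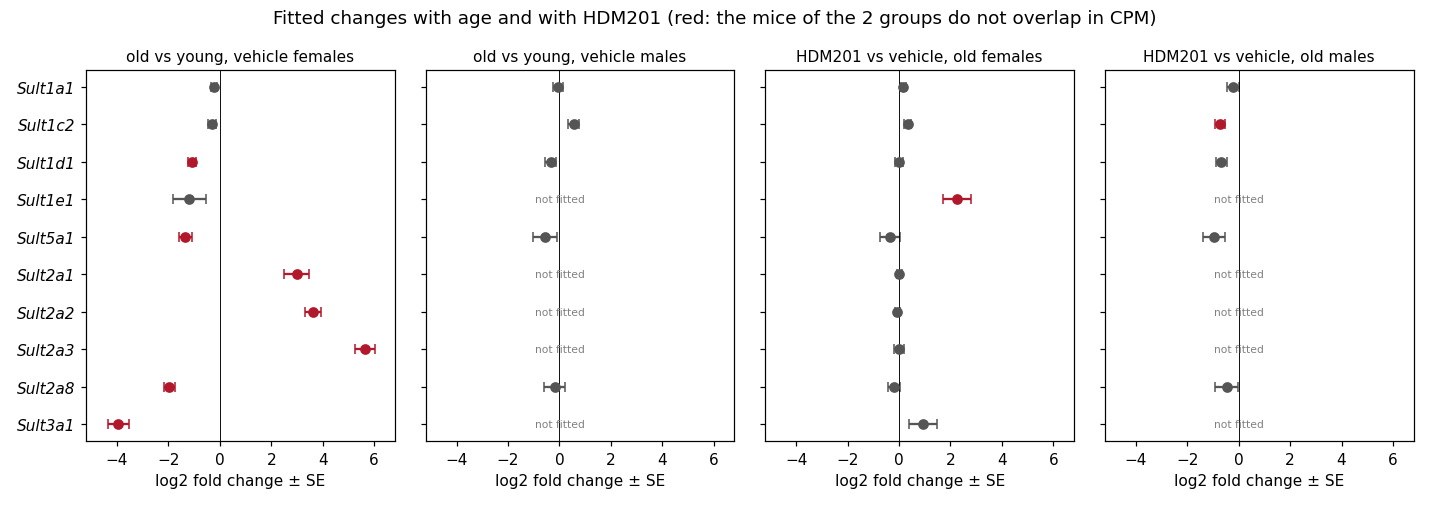
Fitted log2 fold changes (horizontal axis, ± SE from edgeR) of the 10 sulfotransferase genes in 4 comparisons; red points mark genes whose mice do not overlap in CPM between the 2 groups, and genes with too few counts were not fitted. In females 7 genes are red with age and 1, Sult1e1, with HDM201.

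The comparison of HDM201 with vehicle in old mice asks how the liver responds to the release of p53 from MDM2. In old females 1 of the 10 members, Sult1e1, was called, where 5.25% of all 14445 genes were (2.35% higher, 2.9% lower). It alone did not overlap, as did 9.94% of all genes. Both counts are near these shares, so they set the members apart from other genes in neither measure. The log2 fold change of Sult1e1 was 2.27 ± 0.54, from 0.4487 ± 0.2076 CPM (n = 4) to 2.169 ± 1.486 CPM (n = 5). This call was not stable: it was lost in the fit of all 6 groups together (2.27 ± 0.70), with the replicate number as a block (1.74 ± 0.50) and in 6 of the 9 fits that left out 1 mouse. These 6 fits left out vehicle female 2, 3 or 4 or HDM201 female 3, 4 or 5. Over all 9 fits the value ranged from 1.87 (without HDM201 female 5) to 2.59 (without vehicle female 1). The direction was kept in every one of these fits.

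The other 9 members were fitted between -0.36 and 0.94 in old females, and none was called. Sult2a1 was at 0.01 ± 0.09, Sult2a2 at -0.08 ± 0.10, Sult2a3 at 0.00 ± 0.20, Sult1d1 at 0.00 ± 0.15, Sult1a1 at 0.17 ± 0.10, Sult2a8 at -0.20 ± 0.25, Sult1c2 at 0.33 ± 0.15 and Sult5a1 at -0.36 ± 0.38. Sult3a1 was at 0.94 ± 0.54, and at 0.32 without HDM201 female 1, the mouse at 37.41 CPM. Differences well above these errors could still go uncalled, as that of Sult1c2 did, so an absence of change was not shown. The limit was widest for Sult3a1, Sult5a1 and Sult2a8, which had the largest errors of the 9. The vehicle mice of this comparison are the old mice of the comparison with age, so the values of both are not independent.

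Markers of bile duct cells and of macrophages also differed between HDM201 and vehicle old females, where 5.25% of all genes were called. The 6 cholangiocyte markers summed to between 84 and 147.9 CPM in the HDM201 females and between 49.92 and 71.72 CPM in the old vehicle females, without overlap, and 2 of the 5 tested rose. None of them was at 0 in either group. The HDM201 female with the most Sult1e1 had a sum of 101.2 CPM, the third of the 5. In males the sum was 66.6 to 203.2 CPM with HDM201 and 54.99 to 74.64 CPM with vehicle, while Sult1e1 had 18 counts over each group. The macrophage markers were lower in HDM201 females (194.6 to 312.9 against 296.8 to 643.9 CPM) and 7 of 8 fell. Sult1e1 is known in fat, and adipocyte markers summed to 3.107 to 4.337 CPM in HDM201 females and 3.87 to 4.757 CPM in old vehicle females, with Lep and Cfd at 0 in the former and Plin1 and Retn at 0 in the latter. The part of bile duct cells and macrophages in the difference of Sult1e1 was not tested.

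In old males no member was called among the 5 tested, where 1 of 14109 genes (0.00709%, lower) was. At an unadjusted edgeR p under 0.05 the count was 3 of the 5, beside 1710 of the 14109 genes, and DESeq2 called 0 members. All 5 were lower with HDM201, at -0.96 ± 0.43 for Sult5a1, -0.72 ± 0.21 for Sult1c2, -0.67 ± 0.21 for Sult1d1, -0.46 ± 0.45 for Sult2a8 and -0.23 ± 0.23 for Sult1a1 on the log2 scale. Of them Sult1c2 did not overlap (1.987 to 3.683 against 4.173 to 5.754 CPM), where 4.03% of all genes did not. The 8 hepatocyte markers were also below 0 in this comparison, with a median of -0.20 against 0.01 over all genes. All 5 tested markers each of T and NK cells (median 1.08), B and plasma cells (0.36), cholangiocytes (0.55) and endothelial cells (0.25) were above 0, though none was called. The B and plasma cell sum did not overlap (25.01 to 65.04 against 11.99 to 23.38 CPM). The part of these cells in the lower values was not tested. A difference of the HDM201 effect between the sexes was called for no member in edgeR, and for 1 in DESeq2. Of 14974 genes 16 (0.107%) were called in edgeR, 0.0735% higher and 0.0334% lower. An unadjusted edgeR p under 0.05 was found for 4 of the 10 members and for 2774 of all genes. The difference was 1.06 ± 0.26 for Sult1c2 and 2.57 ± 1.08 for Sult1e1 (female minus male).

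The comparison of females with males shows how far each gene was sex-biased. In young vehicle mice 8 of 10 members were called, all higher in females, where 10.5% of all 13875 genes were called (5.63% higher, 4.91% lower), and 7 did not overlap, as did 12.8% of all genes. Beside the Sult2a and Sult3a1 genes above, these were Sult5a1 at 1.64 ± 0.31, Sult1c2 at 1.56 ± 0.18, Sult1d1 at 0.70 ± 0.17 and Sult1a1 at 0.66 ± 0.13 on the log2 scale. The call of Sult1d1 was lost in 6 of the 9 fits without 1 mouse (young males 2, 3 and 4 and young females 1, 2 and 5), and the value ranged from 0.59 without young male 2 to 0.87 without young male 1. Sult2a8 at -0.27 ± 0.25 and Sult1e1 at 1.60 ± 0.78 were not called. In old vehicle mice 6 of 9 members were called, where 18% of all 14088 genes were (8.4% higher, 9.6% lower), and the same 6 did not overlap, as did 23% of all genes. Sult2a8 was lower in females at -2.05 ± 0.40, and Sult1c2 was higher at 0.70 ± 0.17, a call lost without old vehicle female 4 (0.56) or old vehicle male 5 (0.56 to 0.80 over the 8 fits). Sult1d1 at -0.03 ± 0.21, Sult1a1 at 0.49 ± 0.20 and Sult5a1 at 0.85 ± 0.42 were not called, and Sult1a1 was called at 0.68 without old vehicle male 2.

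The genes next to the members were then described along the cluster on chromosome 7. They were not part of the choice of members and were tested in the same edgeR fits. From the first to the last start position the order is Sult2a5, Sult2a-ps1, Sult2a2, Sult2a1, Sult2a-ps2, Sult2a4, Sult2a3, Sult2a-ps3, Sult2a-ps4, Sult2a6, Sult2a8 and Sult2a7, where ps marks a pseudogene. In old against young vehicle females Sult2a5 rose by 2.53 ± 0.32 (FDR 0.000188, 6.962 to 39.93 CPM), Sult2a4 by 2.30 ± 0.60 (FDR 0.0113, 0.1841 to 0.9653 CPM) and Sult2a7 by 1.71 ± 0.33 (FDR 0.00211, 4.718 to 15.19 CPM). Sult2a4, Sult2a6 and the pseudogenes are named for their place in the cluster, after their values were seen. Sult2a6 had 30 counts over the 5 young females and 0 over the 4 old vehicle females. In FPKM it was listed in every female, at 4.392 to 14.04 in young, 0.5478 to 1.252 in old vehicle and 0.1297 to 0.7099 in old HDM201 mice, so it was lower in old females by both measures but not absent. Sult2a4 overlapped in FPKM (0.7974 to 3.148 in young and 0.7474 to 1.32 in old vehicle females), so its rise in counts was not seen in that measure. Sult2a5 and Sult2a7 did not overlap between young and old vehicle females in FPKM, with the old mice higher. Sult2a-ps1 and Sult2a-ps2 had 12 and 2 counts over the young and 89 and 54 over the old vehicle females. Sult2a5 and Sult2a2 share 31.9% of the 50-base windows of Sult2a2, so the change of Sult2a5 is not fully separate from that of Sult2a2.

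**Figure D4:**
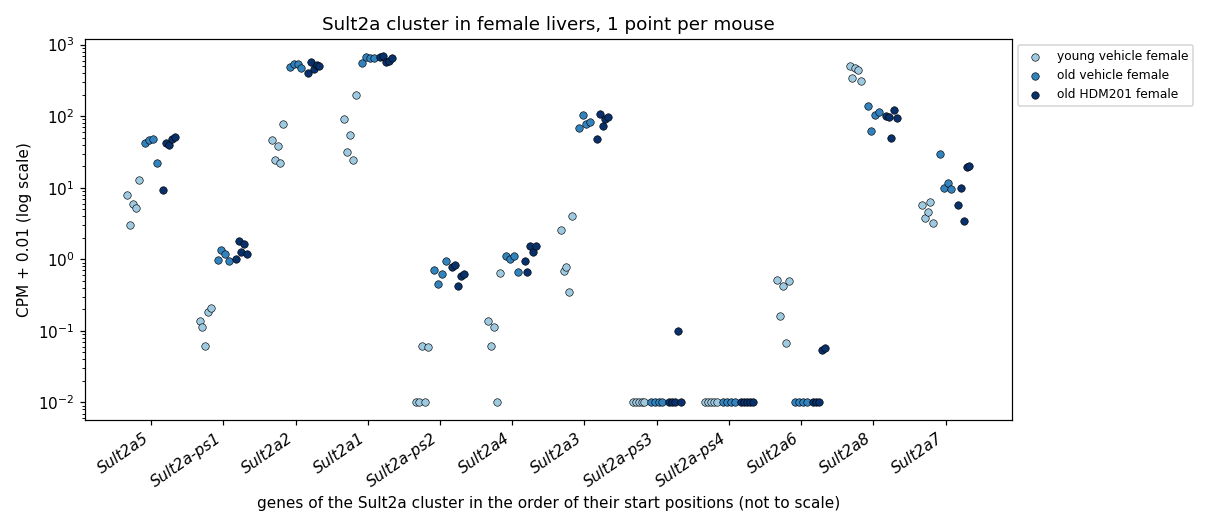
CPM + 0.01 on a log axis for the 12 Sult2a genes and pseudogenes of the cluster in the order of their start positions, in female mice, 1 point per mouse and 1 shade per group; points at 0.01 have 0 counts. Every old vehicle mouse is above every young mouse for Sult2a5, Sult2a-ps1, Sult2a2, Sult2a1, Sult2a-ps2, Sult2a4, Sult2a3 and Sult2a7, and below every young mouse for Sult2a6 and Sult2a8.

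The promoters of this cluster hold related sites, shown here because members of the cluster moved in both directions. The site searched was the inverted repeat without a spacer (IR0), known as a binding site of nuclear receptors in Sult2a genes, with the letters in capitals in the Sult2a5 line, on both strands of the 250 bases before each gene start (RefSeq, GRCm38.p6). It was found in 16 of 32851 promoters (0.0487%). A form with 1 changed base, the capitals of the Sult2a3 line, was found in 13 (0.0396%). This form is the Sult2a3 sequence itself, so its match there was given in advance. The share is for this single form. Other forms with 1 changed base, among them that of the Sult2a4 line, were not counted over all promoters. Sites are in capitals, and changes are given against the Sult2a5 site, whose base comes first, counted from 1 at its 5′ end. The stretches are at chr7:14123203-14123262 (Sult2a3, minus strand, C4A), chr7:13989799-13989838 (Sult2a4, minus strand, G1A), chr7:13623776-13623835 (Sult2a5, plus strand, no change) and chr7:14255046-14255105 (Sult2a6, minus strand, no change).
Sult2a3: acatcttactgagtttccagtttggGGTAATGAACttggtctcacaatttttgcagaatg
Sult2a4: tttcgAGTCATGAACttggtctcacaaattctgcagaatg
Sult2a5: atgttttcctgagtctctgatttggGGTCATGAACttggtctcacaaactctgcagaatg
Sult2a6: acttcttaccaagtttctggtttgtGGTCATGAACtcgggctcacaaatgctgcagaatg
The site with no change was before Sult2a5, which rose with age in females, and before Sult2a6, which was lower in old than in young vehicle females. Sult2a8, with 2 annotated starts, had no such site in either window. No promoter window was used for Sult2a1 and Sult2a2. A STAT5 motif, TTCNNNGAA, was found before Sult3a1 only among the members with a window, and in 7.02% of all promoters. These matches are letters in a window and show no binding.

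Sulfotransferases that are no members and genes of sulfonate supply and removal were tested in the same fits. Sult3a2, the neighbour of Sult3a1 on chromosome 10, fell by 3.58 ± 0.36 in old females (FDR 4.86e-05, 4.467 to 0.3648 CPM), and Sult1b1, which acts on thyroid hormone, fell by 1.16 ± 0.12 (FDR 6.24e-05). Of the 6 other sulfotransferases tested 4 rose and 2 fell. Of 13 genes of PAPS and sulfate supply 2 rose and 4 fell, beside the 31.8% of all genes called. Papss1, a synthase of PAPS, rose by 1.65 ± 0.12 in females (FDR 5.07e-06, 5.678 to 17.66 CPM) and by 1.23 ± 0.24 in males (FDR 0.0256), where the call was lost without old vehicle male 3 or 4 or young male 2 or 4 (1.02 to 1.44 over 8 fits) and with the replicate block. Papss2, the more abundant synthase, fell by 0.53 ± 0.14 in females (FDR 0.0115, 502.2 to 342.8 CPM). The sulfatases, which remove sulfate, gave 2 calls of 12 tested, a share below that of all genes, and both were lower in old females: Sulf2 fell by 0.96 ± 0.12 (FDR 0.000132) and Arsk by 0.51 ± 0.13 (FDR 0.00785). In males Sulf2 fell by 1.57 ± 0.15 (FDR 0.00133) and Galns rose by 1.01 ± 0.15 (FDR 0.00822), both calls lost with the replicate block.

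With HDM201 in old females Sult1b1 rose by 0.58 ± 0.11 (FDR 0.0123, 11.35 to 17.07 CPM), and this call held in all 9 fits without 1 mouse and in all the other alternatives. It was the only one of 5 other sulfotransferases tested that changed. Sult2a5 was at -0.07 ± 0.37, Sult2a4 at 0.29 ± 0.28 and Sult2a7 at -0.37 ± 0.49. Of 13 genes of PAPS and sulfate supply Slc35b2, a PAPS transporter of the Golgi, rose by 0.29 ± 0.07 (FDR 0.0458), a call that held in 2 of 9 fits without 1 mouse (0.24 to 0.32). The median over 12 sulfatases was 0.05 (log2) in these females. In males the median with HDM201 was 0.04 for the sulfatases and 0.06 for the 13 genes of PAPS and sulfate supply, against 0.01 over all genes.

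Regulators known for sulfotransferase genes were also followed. Of 14 nuclear receptors and related factors 1 rose and 1 fell with age in females, where 31.8% of all genes were called. The one that fell was Nr1h4, the bile acid receptor, by 0.49 ± 0.10 (FDR 0.00291). Nr1i3, the receptor CAR, was higher in females by 1.05 ± 0.23 in young mice (FDR 0.0136), and Rora was lower by 0.40 ± 0.08 (FDR 0.0118). Neither was called with age or with HDM201. With HDM201 in females Hnf4a fell by 0.27 ± 0.06 (FDR 0.032), which held in 3 of 9 fits without 1 mouse (-0.29 to -0.25) and was lost in the fit of all groups and with the block.

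The growth hormone and STAT5 axis had 14 genes. Cux2, a female-biased factor downstream of growth hormone, was higher in females by 5.78 ± 0.56 in young (FDR 4.91e-05) and by 5.32 ± 0.57 in old vehicle mice (FDR 0.000398), and was at 0.19 ± 0.33 with age in females. With age in females 4 of the 14 rose and 1 fell, a share near the 31.8% of all genes called. Among those called, Stat5a rose by 0.80 ± 0.13 (FDR 0.000679), Igfals by 0.61 ± 0.14 (FDR 0.00557) and Socs3 by 0.91 ± 0.22 (FDR 0.0072). Cish, a feedback inhibitor induced by STAT5, fell by 1.79 ± 0.20 with HDM201 in males (FDR 0.035, 32.77 to 9.413 CPM) and was the 1 gene called in that comparison. This call was lost without HDM201 male 1, 2, 3 or 5 (-1.92 to -1.56 over 9 fits), in the fit of all groups and with the block. Bcl6, a repressor of female-biased genes, was called in no comparison.

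Sex-biased hepatocyte genes gave a frame for the members. Of 12 female-biased genes 6 rose and 4 fell with age in females, where 31.8% of all genes were called. A1bg rose by 4.22 ± 0.64 (FDR 0.000569), Cyp3a44 by 2.15 ± 0.37 (FDR 0.00121) and Hao2 by 1.38 ± 0.16 (FDR 9.24e-05), while Cyp2b13 fell by 2.67 ± 0.36 (FDR 0.000265). Of 9 male-biased genes tested 8 fell, among them Cyp2d9 by 2.94 ± 0.22 (FDR 5.07e-06) and Slco1a1 by 4.28 ± 0.30 (FDR 4.82e-06). With HDM201 in old females 1 of the 12 female-biased genes rose, Abcd2 by 0.76 ± 0.12 (FDR 0.0096), and this call was lost in the fit of all groups. That count is near the 5.25% of all genes called in this comparison. The FDRs in this and the preceding paragraphs are from edgeR.

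Genes with the profile most like a member over the 27 mice were sought among 12762 genes, by the smallest root mean square difference of centred log2(CPM + 1). For Sult2a1 these were Cyp3a44 (0.546), Cyp3a16 and Cyp3a41a, steroid and drug hydroxylases, where Sult2a1 itself spread by 4.18 around its mean. For Sult3a1 they were Hamp2, Cyp2b13 and Cyp2c40, and for Sult5a1 Gstt3, Cmbl and Sbk1. For Sult1e1, with a spread of 0.621, the nearest genes Stap1, D130043K22Rik and Sgms1 differed from it by 0.377 to 0.427.

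The 2 males without counts had FPKM values, which were set beside those of the 4 other males of their group where these had one. The study's methods say that a young male with a wound and a possible infection was left out of analysis, and whether that mouse is young vehicle male 5 is not given. Young vehicle male 5 was apart: Sult1e1 was at 1.18 FPKM (others at most 0.562), Sult3a1 at 0.911 FPKM (others at most 0.109), Sult2a8 at 19.4 FPKM (others 115 to 358), Sult1c2 at 0.364 FPKM (others 1.01 to 1.94), Sult1d1 at 29.1 FPKM (others 50.5 to 85.8) and Sult1a1 at 219 FPKM (others 246 to 350). Old vehicle male 1 was within the range of the others in Sult1e1, Sult1a1, Sult2a2, Sult2a8 and Sult3a1, and below it in Sult1c2 (1.33 FPKM, others 2.04 to 2.95) and Sult1d1 (26.8 FPKM, others 38.4 to 74). Its Sult2a1 and Sult2a3 had no FPKM value.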

How the data were processed

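Poly(A) reads from whole liver were aligned by the authors with STAR to mm10, and the deposited counts per gene were made with HTSeq. The deposited FPKM values were made by the authors with Cufflinks. Versions, strand and the treatment of reads that match several genes are not given in the sources used here, and DESeq2 was used by the authors with settings that are not given. The labels say only that mice are separate samples. Two-group fits used edgeR 4.0.16 in R 4.3.3 (TMM, filterByExpr at 10 counts per mouse and 15 in all, quasi-likelihood test, Benjamini-Hochberg FDR under 0.05), each comparison on its own groups, and CPM used TMM sizes over all 27 mice. The fits were tested on simulated counts. The alternatives were RLE size factors, no filter, DESeq2 1.42.0, all 6 groups in one fit, a replicate block, leaving out each mouse, and mean FPKM with 1 or 0.1 added. The difference of the age effect between the sexes and the bound at 3 counts were added after the data were seen. Intervals are exact at 95%. Levels per kb used the exon union of GENCODE (GRCm38), to which 54673 of 55421 gene IDs matched. Motifs were searched in RefSeq promoters (GRCm38.p6) 250 bases before the start, and tables were handled in Python 3.11.15.

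The members and gene lists were chosen with earlier results of these data known. Named were all 10 members, of each list up to 4 called genes per comparison with the lowest FDR, a few regulators and PAPS synthases whatever they did, and the 3 genes most like a member (mean CPM of at least 1). Sts and Sult7a1 were not analysed here. Sult5a1 had no FPKM value, and empty FPKM cells were left out.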

Additional observations from a re-analysis of the deposited data

Results flagged for a closer look

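Single mice stood far from the rest of their group in 7 of the 57 sets of a member and a group that were examined. The rule would mark about 1 in 20 sets by chance if values were normally distributed. That rate does not hold near 0, where 1 read among mice at 0 is enough, so the 7 were not set against it. Sult3a1 was at 37.41 CPM in old HDM201 female 1, with the next mouse at 12.49 CPM. Sult1c2 was at 12.25 CPM in young vehicle female 1, with the next at 9.526 CPM. Old vehicle male 4 had 0.9754 CPM of Sult2a1 (17 counts, next mouse 0.1046 CPM) and 0.4017 CPM of Sult2a2 (7 counts, next 0.05796 CPM), so both genes were highest in the same mouse. The other 3 rest on 1 to 5 counts: Sult2a1 at 0.05365 CPM in old HDM201 male 4, Sult2a2 at 0.04538 CPM in young vehicle male 4 and Sult3a1 at 0.267 CPM in old HDM201 male 2.

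Some non-member genes of the lists differed between the sexes in their response, by edgeR's test of the difference (female minus male, log2 scale). For HDM201 this was Cish at 2.361 (FDR 0.04), a call that held in 14 of 18 fits without 1 mouse and was lost in the fit of all groups and with the replicate block. For age, genes with a smaller value in females were Slco1a1 at -4.197 (FDR 0.00146), Mup20 at -2.564 (FDR 0.00195), Cyp2d9 at -2.732 (FDR 0.0199), Cyp2b9 at -4.589 (FDR 0.0141), Cyp2b13 at -11.679 (FDR 0.00158) and Nfe2l2 at -0.485 (FDR 0.0425). Genes with a larger value in females were A1bg at 6.371 (FDR 0.0259), Igfals at 0.89 (FDR 0.037) and Sumf1 at 0.503 (FDR 0.0491). The value of Cyp2b13 rests on young males with 0 counts and its size cannot be interpreted.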

How the results depend on the processing

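No called member or named list gene changed direction under any alternative run on it. Mean FPKM was run for members only. The call of Sult2a4 with age in females was not among those rerun, and its rise was not seen in FPKM. Among the members' fold changes RLE size factors, no filter and the fit of all groups moved none of 69 by more than the spread between mice (1 SD, log2 scale), DESeq2 moved 1 of 69, the replicate block 3 of 69, leaving out a mouse 13 of 767 and mean FPKM + 1 moved 7 of 39. With HDM201 in old females edgeR called 758 genes, DESeq2 1329, the fit of all groups 208, the block 366, and the fits without 1 mouse 185 (without old vehicle female 2) to 956; 1 member was called, 0 in the fit of all groups, 0 with the block and 0 to 1 without 1 mouse. In old males 1 gene was called, 22 without a filter, 171 by DESeq2, 6 in the fit of all groups and 0 to 13 without 1 mouse. With age in males 507 genes were called, 968 without a filter, 1309 by DESeq2, 2007 in the fit of all groups, 29 with the block and 144 (without old vehicle male 4) to 579 without 1 mouse. With age in females 4530 genes were called (3502 to 4494 without 1 mouse) and 7 to 8 members. Between the sexes 1462 genes were called in young mice (2483 in the fit of all groups, 858 with the block, 764 without young vehicle male 4 to 1864) and 2536 in old mice (742 with the block, 1490 without old vehicle female 4 to 2505), with 6 to 8 members and 5 to 7. The sex difference of the HDM201 effect was called for 16 genes (122 without a filter, 682 by DESeq2, 0 with the block, 0 without old vehicle female 1 to 314) and 0 members (1 by DESeq2, 0 to 1 without 1 mouse), and that of the age effect for 577 genes (1181 by DESeq2, 183 with the block, 207 without old vehicle female 4 to 1193) and 0 members (2 without a filter, 4 by DESeq2, 0 to 2 without 1 mouse). Of 93 named calls of list genes the block lost 29, the fit of all groups 11, no filter 7, DESeq2 2 and RLE 1. The causes were not tested. Same-numbered mice had correlations of their deviations between -0.222 and 0.222, so the numbers were not taken to pair mice. Age and substrain cannot be told apart, and low counts limit Sult1e1 in all groups and Sult2a1, Sult2a2, Sult2a3 and Sult3a1 in males.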
